A study of Mus musculus with 6 samples.

Results

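The genes of the cytosolic ribosomal proteins were followed in hind limb skeletal muscle of mice deficient in the laminin alpha 2 chain. They were chosen by name, as every gene whose symbol fits the pattern of the Rpl, Rps, Rplp and Rpsa genes and that has at least 1 probe set assigned to that symbol alone. The array held 46 such genes of 18193 genes with a probe set of their own, read by 100 probe sets. A filter on low signal kept 45 of the 46 among the 13113 genes tested, and left out Rps16. Another 28 symbols of the same pattern, Rpl3 among them, occur only on probe sets that also carry other symbols, and no value is given under those names.

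RNA of all hind limb muscle was measured on 1 Affymetrix array per mouse, in 3 mice deficient in the laminin alpha 2 chain and 3 wild type mice, all 4 weeks old and isolated one by one. The labels call them biological replicates and give no allele, background strain, sex or promoter for the deficiency. The laminin alpha 2 chain is a subunit of the laminin that ties the muscle fibre to its basement membrane, and mice without it have a severe muscular dystrophy. The files give each probe set a linear signal. A log2 fold change here is the deficient mean of log2(signal + 16) minus the wild type mean, a scale on which changes of dim genes come out too small. A gene is said to have risen or fallen where limma, fitted over all genes tested, gave an adjusted p under 0.05.

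The ribosome is built from a small subunit, which reads the message, and a large subunit, which joins the amino acids. Each holds ribosomal RNA and one copy of most of its proteins, named Rps for the small and Rpl for the large subunit. Cells make these proteins in matched amounts, in part through translation, since their messages begin with a run of pyrimidines through which the mTOR pathway sets how well they are read. Skeletal muscle is unusual in having its own form of a core protein: Rpl3l takes the place of the ubiquitous Rpl3, next to the site where peptide bonds form, in ribosomes of heart and skeletal muscle fibres.

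The windows around the first start listed for 6 members are shown because values below turn on these genes, and so that the muscle paralog can be set beside ubiquitous members. Each runs from 60 bases before to 20 bases from the start, 5′ to 3′, from RefSeq on GRCm38.p6. Capitals mark the longest unbroken run of C and T within 20 bases of the start on either side.
Rpl3l, chr17:24727766-24727845, plus strand: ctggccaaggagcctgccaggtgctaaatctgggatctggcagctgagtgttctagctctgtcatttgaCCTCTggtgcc
Rps27l, chr9:66946026-66946105, plus strand: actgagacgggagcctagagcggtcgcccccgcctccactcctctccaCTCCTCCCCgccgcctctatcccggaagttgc
Rpl38, chr11:114668520-114668599, plus strand: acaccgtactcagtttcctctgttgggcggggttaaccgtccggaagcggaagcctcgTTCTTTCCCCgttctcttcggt
Rpl35, chr2:39005112-39005191, minus strand: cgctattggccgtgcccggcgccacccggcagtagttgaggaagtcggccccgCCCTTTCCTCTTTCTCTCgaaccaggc
Rps25, chr9:44407654-44407733, plus strand: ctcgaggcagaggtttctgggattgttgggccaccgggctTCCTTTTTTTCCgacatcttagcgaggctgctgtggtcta
Rps27, chr3:90213629-90213708, minus strand: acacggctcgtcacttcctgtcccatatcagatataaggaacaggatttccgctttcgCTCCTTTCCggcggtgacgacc

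The marked run is 5 bases long in Rpl3l, 9 in Rps27l and Rps27, 10 in Rpl38, 12 in Rps25 and 18 in Rpl35. It lies wholly before the start in Rps27l and Rps25, wholly after it in Rpl3l, and across it in the others. In Rps25 the pyrimidines go on past the edge of the 20 bases, where the count stops. Rps27l and Rpl3l each have a further start, not printed, where the longest run is 4 bases. RefSeq promoters were matched to 40 of the 46 members, with 48 starts between them. A run of at least 8 pyrimidines lay within 20 bases of 19 of these 48 starts, or 39.6%, and of 16% of all 32851 promoters of the table. The letters CCGGAAG, searched on both strands of windows from 250 bases before to 50 after the start, were in 20 member windows, or 41.7%, and in 8.86% of all windows. They stand in the windows of Rps27l and Rpl38 printed above, in lower case. TATAAA was in 10.4% of member windows and in 13.6% of all. CANNTG, which reads the same on both strands, was in 54.2% of member windows and in 72.3% of all. Neither of the 2 Rpl3l starts had a pyrimidine run of 8 or any of these motifs other than CANNTG, which both had. A match of letters is a description of the window and not a site.

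The array medians lay between 20 and 26.1 signal units, and precision is limited by having 3 arrays in each group. Lama2, the gene of the missing chain, averaged 84.5 ± 54.7 in deficient and 390.2 ± 55.8 in wild type muscle (SD, n = 3 each), and fell by 2.17 on the log2 scale (limma adjusted p = 0.0209). The log2 fold change was -2.23 without deficient replicate 1, -2.10 without wild type replicate 1 and -2.12 without wild type replicate 2, and with fewer libraries the adjusted p was 0.0589, 0.103 and 0.0834. All 10 fibre markers fixed for the check of the tissue were bright, and their summed signal ran from 89723 to 122691 in deficient and from 118405 to 124848 in wild type muscle. Markers of regenerating muscle summed to between 10301.9 and 15015 in deficient and between 675.2 and 1091 in wild type muscle, and 7 of 10 rose. Macrophage markers summed to between 4691 and 13120.5 against between 2679.8 and 3931, and 3 of 10 rose. Lymphocyte markers, 7 of 10 tested, summed to between 375.9 and 434.1 in deficient and between 1135 and 1290.3 in wild type muscle. The 1 that fell was Ighm, which averaged 165 in deficient and 857 in wild type muscle. It made up most of each wild type sum. Cd3d, Cd3g, Nkg7, Cd79a and Cd79b overlapped between the groups. Ms4a1 was lower without overlap and did not pass (limma adjusted p = 0.0941). Brown adipocyte markers summed to between 5513 and 6939.6 against between 8174 and 10174, and of 7, 1 rose and 2 fell. Most of these sums was Cox8b, which averaged 5424 in deficient and 7333 in wild type muscle. It did not pass (limma adjusted p = 0.111). Dio2 rose, and Ucp1 and Cidea fell. Hair follicle markers, 9 of 10 tested, summed to between 171.8 and 288.4 in deficient muscle, and to 2261, 1209 and 266.4 in wild type replicates 1, 2 and 3. The ratio of the 5 prime to the 3 prime actin control probe set was 0.819, 0.510 and 0.573 in the deficient libraries, against 1.15, 1.05 and 1.04 in the wild type libraries. The same ratio of the Gapdh control overlapped between the groups.

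Of the 45 ribosomal protein genes tested, 0 rose, 1 fell and 44 did not pass. Among all genes tested, 1.24% were called higher and 1.44% lower. The gene that fell was Rpl3l, the muscle form of Rpl3. The other 44 had log2 fold changes between -0.58 and 0.79, of which 34 were positive and 10 negative. Over all genes tested 6894 were positive and 6219 negative. At an unadjusted p under 0.05 in limma there were 3 higher members, Rps25, Rps19 and Rpsa, and 2 lower, Rpl3l and Rps27l, where all genes gave 9.39% higher and 9.47% lower.

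The median over the 45 members was 0.11 on the log2 scale, with quartiles at 0.02 and 0.23. The median over all genes tested was 0.02, and over the 889 genes with a mean signal of at least 1000 it was -0.15. The median of the members was 0.05 without deficient replicate 2 and 0.19 without deficient replicate 3. Both subunits had small positive medians, 0.14 over 24 genes of the large subunit and 0.11 over 21 genes of the small subunit. In the large subunit 0 rose, 1 fell, 19 fold changes were positive and 5 negative. In the small subunit 0 rose, 0 fell, 15 were positive and 6 negative.

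Rpl3l read 1938, 1788 and 1828 signal units in the 3 deficient muscles, against 4120, 3574 and 4014 in the 3 wild type muscles. The ranges were apart, and the highest deficient value lay well under the lowest wild type value. Rpl3l averaged 1852 ± 77.7 in deficient and 3903 ± 289.5 in wild type muscle (SD, n = 3 each), and fell by 1.07 on the log2 scale (SE 0.135, limma adjusted p = 0.00606). The 95% confidence interval ran from -1.37 to -0.76. By p it ranked 37 of the 13113 genes tested. It has 1 probe set, so no second reading exists on this array.

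The fall of Rpl3l passed in all 18 alternative settings, with log2 fold changes between -1.13 and -0.93. Without wild type replicates 1 and 2, which had the most hair follicle transcripts, its log2 fold change was -1.11, a value with no test. The hair follicle sum of wild type replicate 3, 266.4, lay within the deficient range. Some single markers, such as Tchh, were still higher in it than in any deficient muscle. In RNA of a whole muscle, fewer cells of a type and less RNA per cell cannot be told apart. The part of the regeneration, macrophage, lymphocyte and brown adipocyte markers and of the actin ratio in this difference was not tested.

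Rpl3l lies on chr17:24727826-24736143 of GRCm38.p6, on the plus strand, and the next ribosomal protein gene upstream is Rps2, at chr17:24718121-24721927. The stretch between them is 5898 bases long and holds 1 gene, Ndufb10. Rps2, a protein of the small subunit near the path of the message, read 6635, 7441 and 6614 in deficient muscle, against 7808, 6975 and 7282 in wild type muscle. The groups overlapped, with a log2 fold change of -0.09 (limma adjusted p = 0.722). The 45 tested members lie on 17 chromosomes.

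Rps27l, a paralog of Rps27 that p53 induces, was the second lowest member. It read 1733, 1711 and 1155 in deficient muscle, against 2281, 2407 and 2121 in wild type muscle. The groups did not overlap, and deficient replicate 3 was the lowest. It averaged 1533 ± 327 in deficient and 2269.8 ± 144 in wild type muscle (SD, n = 3 each), a log2 fold change of -0.58 that did not pass (SE 0.185, limma adjusted p = 0.130). All 3 of its probe sets gave negative values, -0.58, -0.36 and -0.41. In each group 2 libraries held Y-linked transcripts and replicate 3 did not, and with this as a block Rps27l passed (limma adjusted p = 0.0311). Without wild type replicates 1 and 2 its log2 fold change was -0.49.

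**Figure D1:**
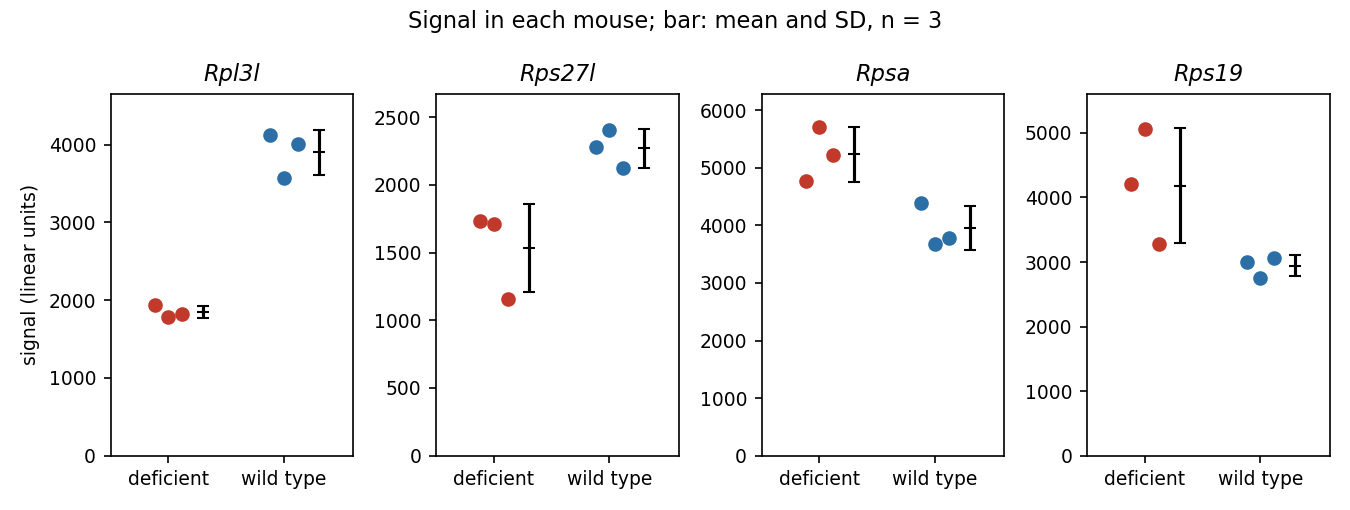
Signal of Rpl3l, Rps27l, Rpsa and Rps19 in linear units (vertical axes, from 0) in each of the 3 deficient mice (red, left) and 3 wild type mice (blue, right), in the order of the replicate numbers. Bars give the mean and SD. Rpl3l sits between 1788 and 1938 in deficient muscle and between 3574 and 4120 in wild type muscle, and the groups do not overlap in any of the 4 panels.

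The other paralogs were dimmer or did not separate. Rpl39l, a copy of Rpl39 best known from testis, read 68.1, 36.4 and 5.2 in deficient muscle, against 54.7, 46 and 41.1 in wild type muscle. Rps4l, a copy of Rps4x, read 178.1, 71.5 and 12.2 against 121.1, 83.1 and 49.3. Both genes overlapped between the groups, and in both the spread was widest among the deficient mice. Neither passed, with log2 fold changes of -0.47 (limma adjusted p = 0.60) and -0.30 (0.836), and both turned positive without deficient replicate 3.

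Genes that carry a ribosomal protein or a paralog but fall outside the naming pattern were read beside them. Fau, whose product is split into a ubiquitin-like protein and the small subunit protein Rps30, read 3993, 3947 and 3467 in deficient muscle, against 2991, 2925 and 2553 in wild type muscle. All deficient values lay above all wild type values, and its log2 fold change of 0.43 did not pass (SE 0.138, limma adjusted p = 0.134). Rpl22l1, a paralog of Rpl22, read 3538, 2753 and 2367 in deficient muscle, against 3146, 3353 and 3259 in wild type muscle, a log2 fold change of -0.19 (adjusted p = 0.580). The groups overlapped. Rpl7l1, which works in the making of the large subunit, read 229.3, 190.8 and 149.6 against 272.4, 281.9 and 222, a log2 fold change of -0.43 (adjusted p = 0.305). Its groups overlapped as well.

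The large subunit members with the highest fold changes were Rpl35 and Rpl13a. Rpl35, which sits by the exit of the tunnel through which the new protein leaves, read 6561, 8098 and 6685 in deficient muscle, against 6484, 5735 and 5320.5 in wild type muscle. Rpl13a, which outside the ribosome can silence messages of inflammation, read 7001, 7632 and 6666 in deficient muscle, against 5955, 5519 and 6247 in wild type muscle. The groups did not overlap in either gene, though in Rpl35 the lowest deficient value, 6561, lay just above the highest wild type value, 6484. Neither passed, with log2 fold changes of 0.28 (SE 0.138, limma adjusted p = 0.308) and 0.26 (SE 0.121, adjusted p = 0.277).

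Other large subunit members had lower fold changes. Rpl7 read 5407, 6033 and 4861.5 in deficient muscle, against 4583, 4566 and 4522 in wild type muscle. Rpl10a read 5246.5, 5759 and 5255.5 against 4907, 4332 and 4966. Both separated the groups by a narrow margin, with log2 fold changes of 0.25 (limma adjusted p = 0.336) and 0.20 (0.435). Rpl38, which in mouse embryos is needed for the translation of Hox messages, read 8006, 9097 and 8161 in deficient muscle, against 7563, 7001 and 7558 in wild type muscle. These did not overlap either, at 0.19 (SE 0.115, adjusted p = 0.410). Rpl11, which binds the p53 inhibitor Mdm2, read 3969, 4074 and 2788 against 3496.5, 3338 and 3587, with deficient replicates on both sides of the wild type values and a log2 fold change of 0.04 (adjusted p = 0.938).

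Proteins of the stalk, the arm of the large subunit that calls in the elongation factors, did not separate the groups. Rplp0, its base, read 7099.6, 7846 and 6457 in deficient muscle, against 7607, 7919.8 and 7629 in wild type muscle. Rplp2 read 7783, 7677 and 7949 against 8087, 7113 and 7135. The values overlapped in both, with log2 fold changes of -0.12 (95% confidence interval -0.39 to 0.15, limma adjusted p = 0.646) and 0.07 (-0.19 to 0.33, adjusted p = 0.793). Rplp0, often used as a reference gene, had the lowest fold change of the ubiquitous members with a signal of at least 1000.

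In the small subunit, Rpsa and Rps19 had the highest fold changes among members with a signal of at least 1000. Rpsa, the protein also known as the laminin receptor precursor, read 4767, 5719 and 5225 in deficient muscle, against 4389.8, 3685 and 3788 in wild type muscle. Rps19, which is mutated in human Diamond-Blackfan anaemia, read 4212, 5065 and 3275 in deficient muscle, against 3008, 2759 and 3062.5 in wild type muscle. The groups did not overlap in either gene, though deficient replicate 3 came close to the wild type values for Rps19. Rpsa had a log2 fold change of 0.40 (SE 0.136, limma adjusted p = 0.150) and Rps19 one of 0.48 (SE 0.172, adjusted p = 0.168). Neither passed, and each passed under 1 alternative: Rpsa with quantile normalization (0.52, adjusted p = 0.0462) and Rps19 without deficient replicate 3 (0.65, adjusted p = 0.0383). Without wild type replicates 1 and 2, which had the most hair follicle transcripts, they stood at 0.46 and 0.43.

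Rps9, Rps29 and Rps14 were further small subunit members with a signal of at least 1000. Rps9 read 4456, 4343 and 3866.5 in deficient muscle, against 3647, 3564 and 3536 in wild type muscle, which did not overlap, at 0.23 (limma adjusted p = 0.358). Rps29, a small zinc-binding protein, read 8643, 10395 and 9836 in deficient muscle, against 9496, 9877 and 10227 in wild type muscle. Rps14, a protein of the platform of the small subunit, read 7537, 8383 and 7043 against 7304, 7682 and 6982. Both overlapped, with log2 fold changes of -0.04 (95% confidence interval -0.30 to 0.22, adjusted p = 0.895) and 0.06 (-0.21 to 0.33, adjusted p = 0.835). The sign of Rps29 turned with quantile normalization and without deficient replicate 1, and that of Rps14 without deficient replicate 2.

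**Figure D2:**
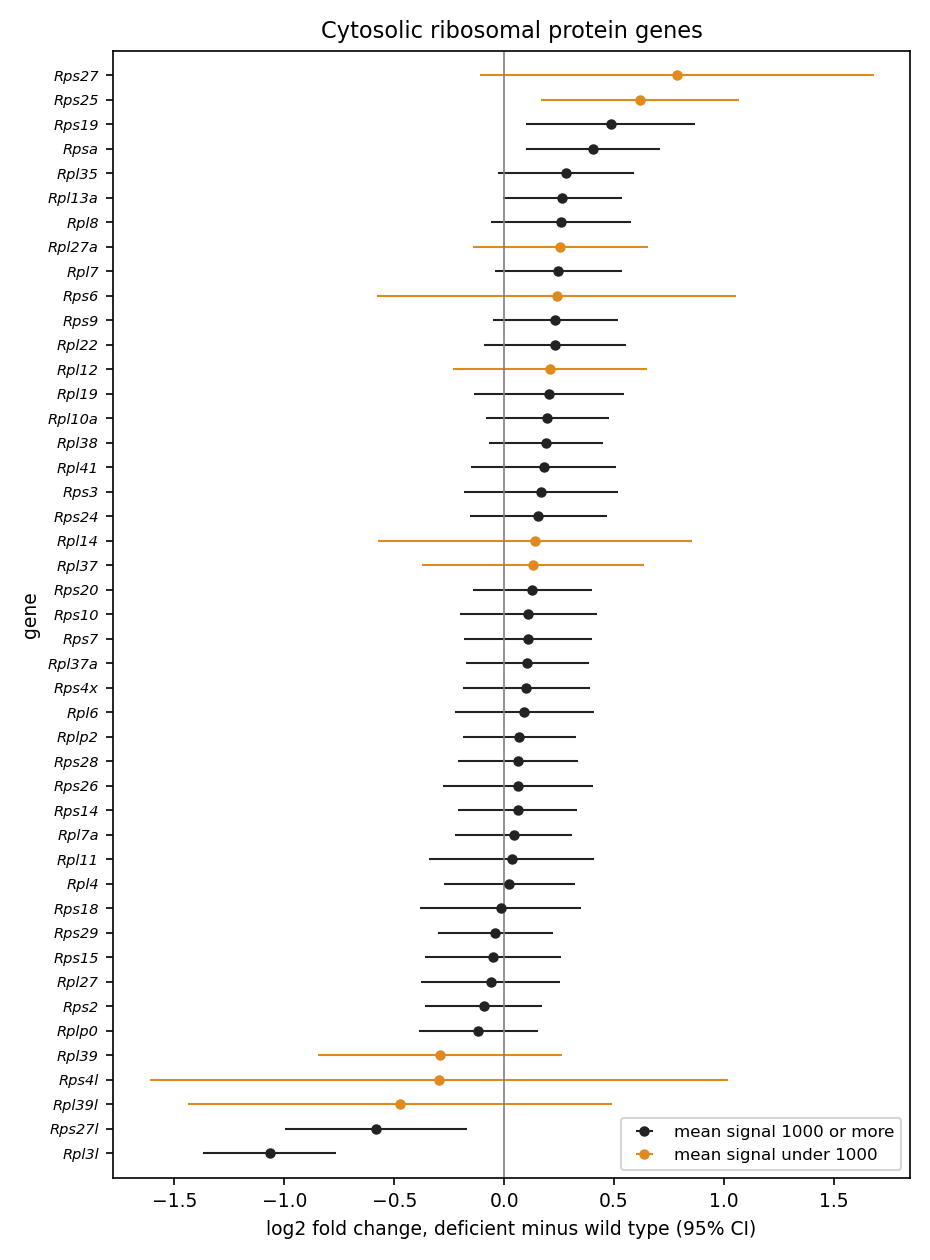
Log2 fold change, deficient minus wild type, of the 45 tested members (horizontal axis), 1 row per gene from the highest at the top to the lowest at the bottom. Points are limma estimates and lines their 95% confidence intervals, in black for a mean signal of at least 1000 and in orange below it. Rpl3l at -1.07 lies apart at the bottom, and the dim genes have the widest intervals.

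How far these values bound a difference depends on the signal. The limit of 1000 used here was chosen after the values were seen, and signals of different probe sets do not rank the genes by abundance. Of the members, 35 reached it. Without Rpl3l and Rps27l, the other 33 had mean signals between 3308 and 9746 and log2 fold changes between -0.12 and 0.48. Of these 33, 27 were positive and 6 negative. Of all 889 genes with a mean signal of at least 1000, 329 were positive and 560 negative. The 95% confidence interval lay within a 1.5-fold change in either direction for 30 of the 33 and within 2-fold for all 33. The exceptions at 1.5-fold were Rps19, Rpsa and Rpl35. These intervals are for the brightest probe set of each gene, and other probe sets of some genes lay further from 0, with values up to 0.85 for Rps10 and 0.52 for Rpl27.

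The 10 members with a mean signal under 1000 ranged from 41.9 to 370.4, and 0 of them had an interval within 1.5-fold. Whether these probe sets, or that of Rps16 below, read the main message of their genes was not tested. Rps27, the zinc finger protein whose paralog is Rps27l, had the highest fold change of all members. It read 49.2, 121.6 and 110.3 in deficient muscle, against 87.8, 21 and 41.5 in wild type muscle, which overlapped, at 0.79 (SE 0.399, limma adjusted p = 0.326). Without wild type replicate 2 its log2 fold change was 0.43, below the 0.47 of Rps25 in the same fit, and without wild type replicate 1 it was 1.18. Rps25, which in yeast and human cells is needed for starting translation at internal entry sites, read 153.2, 166.9 and 167.8 in deficient muscle, against 107.2, 77.8 and 119.6 in wild type muscle. Its ranges were apart too, and its log2 fold change of 0.62 did not pass (SE 0.201, adjusted p = 0.136).

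Rps6, the target of the S6 kinases, read 226, 308.1 and 90.2 in deficient muscle, against 164.2, 178.9 and 128.1 in wild type muscle. Deficient replicate 3 lay below all wild type values and the other 2 deficient replicates above, at 0.24 (SE 0.364, limma adjusted p = 0.775). Rpl27a read 227.7, 257.8 and 254.6 against 182, 210.2 and 221.3, which did not overlap, at 0.25 (adjusted p = 0.476). Rpl39, a small protein of the exit tunnel, read 66.4, 90.4 and 111.6 against 142.1, 81.9 and 116.9, which overlapped, at -0.29 (adjusted p = 0.566). The single probe set of Rps16, below the filter, read 0.4, 0.9 and 0.5 in deficient and 1.6, 0.4 and 1.8 in wild type muscle, near the floor of the array in all 6 libraries.

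There were 10 members with all deficient values above all wild type values and 2, Rpl3l and Rps27l, with all of them below. Over all genes tested the shares were 12.3% higher and 12.4% lower. The 10 were Rps25, Rps19, Rpsa, Rpl35, Rpl13a, Rpl27a, Rpl7, Rps9, Rpl10a and Rpl38. Of these 10, 6 belong to the large and 4 to the small subunit.

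**Figure D3:**
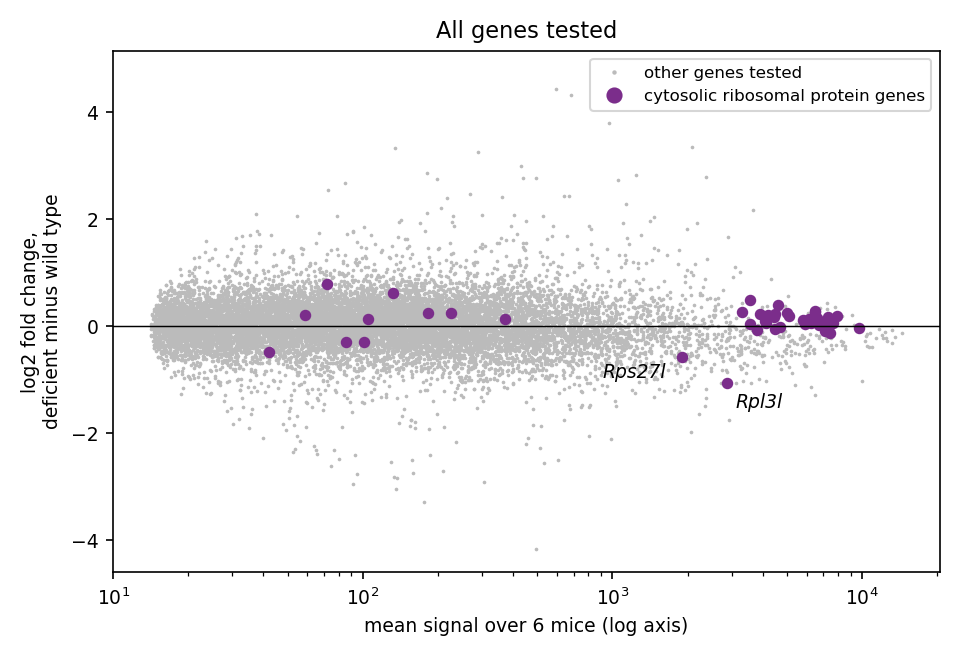
Log2 fold change, deficient minus wild type (vertical axis), against the mean signal over the 6 mice (horizontal log axis) for the 13113 genes tested (grey) and the 45 ribosomal protein genes among them (purple). Most members lie in a group at signals of 3308 to 9746 close to 0, with Rpl3l and Rps27l below it.

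Many members shared the mouse in which they were highest or lowest. For each library the median over members of the deviation from the gene's own mean was 0.05, 0.19 and -0.09 in the 3 deficient muscles, against 0.00309, -0.08 and -0.05 in the 3 wild type muscles, on the log2 scale. The groups overlapped, since deficient replicate 3 was the lowest of all 6. Of the 33 ubiquitous members with a signal of at least 1000, 22 were highest in deficient replicate 2. The lowest value fell in wild type replicate 2 for 11 of them, in wild type replicate 3 for 9 and in deficient replicate 3 for 8. Members of 1 library share its scaling and its RNA, so they are not independent readings of the condition. Deficient replicate 2 also had the highest sum of regeneration markers, 15015, and the lowest actin ratio, 0.510. Fibroblast markers, 9 of 10 tested, summed highest in deficient replicate 2 as well, to 43159.8. Deficient replicate 3 had the lowest sum of macrophage markers among the deficient muscles, 4691. Deficient replicate 3 was also the only deficient library without Y-linked transcripts. The part of these markers and transcripts and of the actin ratio in these deviations was not tested.

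**Figure D4:**
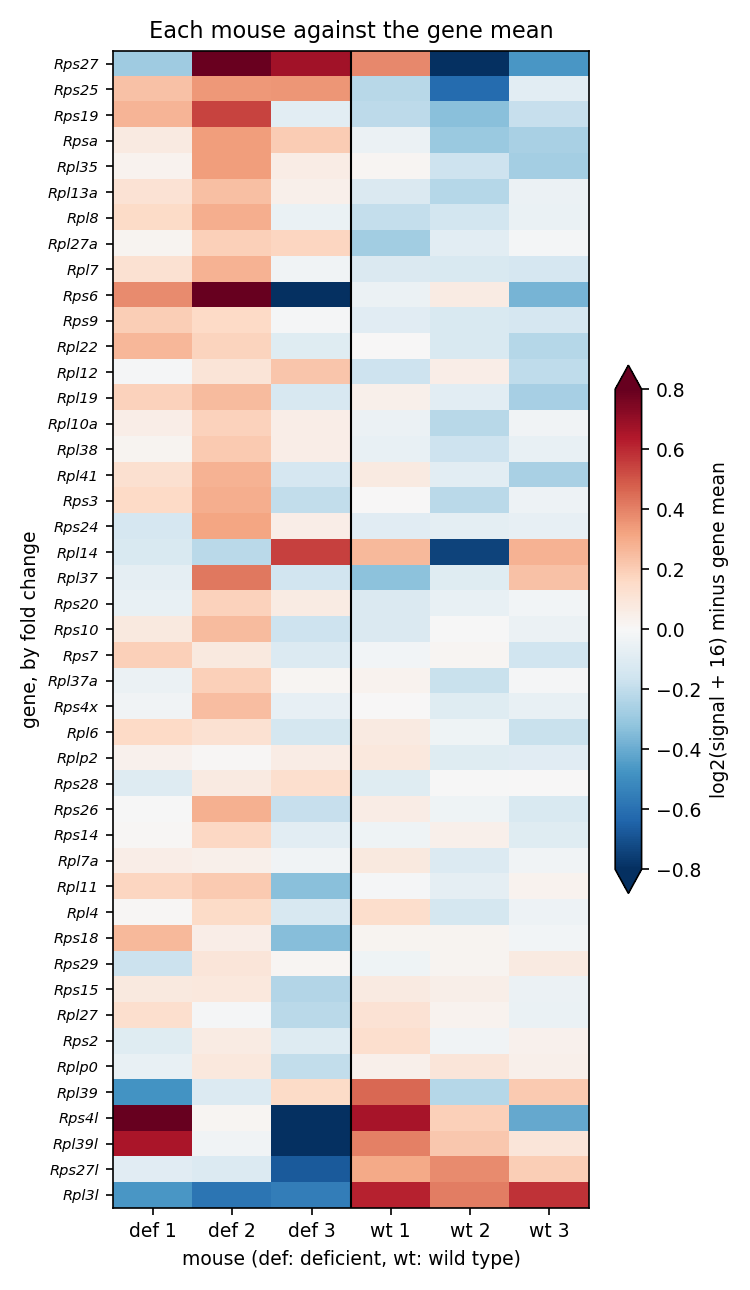
Deviation of log2(signal + 16) from the gene's mean over the 6 libraries (colour, red above and blue below, cut at 0.8 in both directions) for the 45 tested members in rows, ordered by fold change, and the 3 deficient and then the 3 wild type mice in columns. Deficient replicate 2 is red for most rows, and Rpl3l in the bottom row is blue in all 3 deficient and red in all 3 wild type mice.

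Different probe sets of a gene did not always give the same value. At least 2 probe sets passed the filter for 19 members, and all had the same sign in 14 of them. The brightest probe set, which stands for the gene in the values above, gave a lower fold change than the median of the others in 16 of the 19. With the mean of all probe sets the median over members was 0.19 instead of 0.11. The widest spread was in Rps10, with log2 fold changes from 0.09 to 0.85 over 6 probe sets. In Rpl37a, a zinc-binding protein, they ran from 0.08 to 0.72 over 3 probe sets. In Rpl27 they ran from -0.06 to 0.52 over 3. The brightest probe sets of these 3 genes gave 0.11, 0.11 and -0.06.

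**Figure D5:**
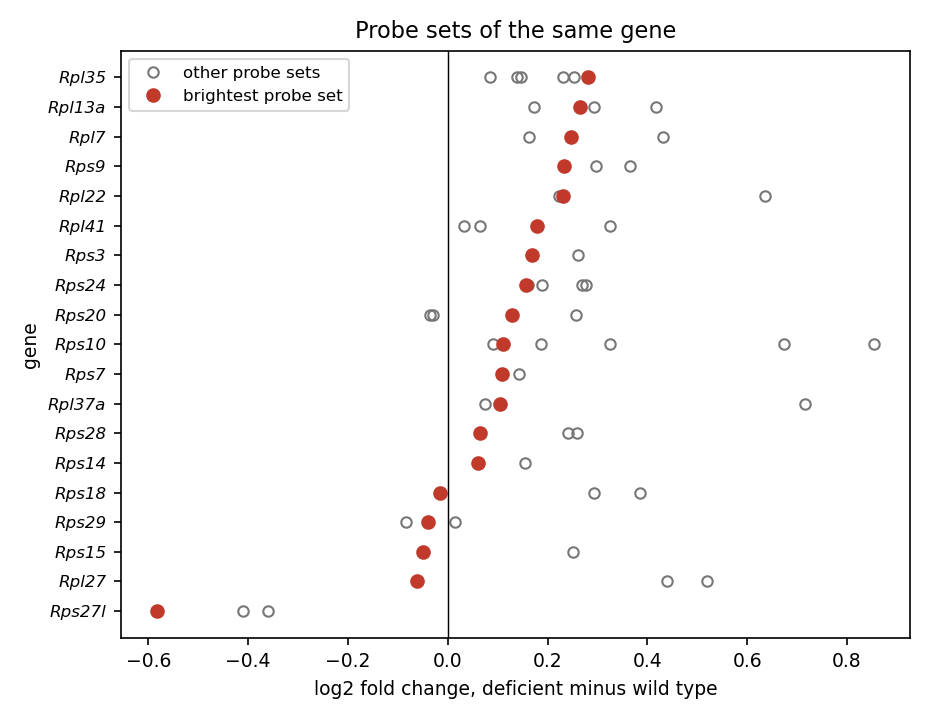
Log2 fold change, deficient minus wild type (horizontal axis), of every probe set above the filter for the 19 members with at least 2 of them (rows). Filled points are the brightest probe set of the gene and open points the others. All 3 probe sets of Rps27l lie below 0, and those of Rps10 spread from 0.09 to 0.85.

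Probe sets that list a ribosomal protein symbol together with other symbols were read without a gene name. There were 110, of which 104 passed the filter. Fitted among all 27022 probe sets above the filter, 0 rose and 0 fell in limma, where all probe sets gave 0.6% and 0.825%. At an unadjusted p under 0.05 there were 14 higher and 1 lower, and all probe sets gave 7.99% higher and 8.35% lower. The log2 fold changes ran from -0.79 to 0.81, 82 positive and 22 negative, with a median of 0.14, where all probe sets gave 0.03. Since ribosomal protein genes have many processed copies in the mouse genome, the probe sets named here may also read such copies.

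Genes that act with the ribosome were read from lists, none of which held a gene that passed other than Rpl3l itself. Of 20 elongation factors and other genes with a 5 prime pyrimidine run, 17 were tested, and 0 rose and 0 fell, with 8 higher and 1 lower at an unadjusted p under 0.05 in limma. Over all genes these shares were 9.39% and 9.47%, for this list and the next 3. Their median was 0.31, and they include Fau. The examples that follow were chosen after their values were seen. Eef1a1, the elongation factor that brings the aminoacyl-tRNA, read 8233.5, 9711 and 8247 in deficient muscle, against 6958, 6841 and 6618 in wild type muscle. Eef1a2, the form that replaces it in adult muscle fibres, read 2437, 3429 and 3774 against 4693, 4219.7 and 4532. Each separated the groups, in opposite directions, with log2 fold changes of 0.35 (limma adjusted p = 0.149) and -0.50 (0.162), and neither passed.

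Of 32 initiation factors, 27 were tested, and 0 rose and 0 fell in limma, with 4 higher and 2 lower at an unadjusted p under 0.05 and a median of 0.11. Of 44 genes of ribosome assembly and RNA polymerase I, 43 were tested, and 0 rose and 0 fell, with 6 higher and 1 lower at an unadjusted p under 0.05 and a median of 0.07. Polr1d, a subunit shared by RNA polymerases I and III, had the smallest p. It read 848.8, 1239 and 1059.6 in deficient muscle, against 1883, 1887 and 1546 in wild type muscle. These did not overlap, and the log2 fold change of -0.76 did not pass (SE 0.183, adjusted p = 0.0634). Ncl, the nucleolar protein nucleolin, read 1703, 2083 and 1707 in deficient muscle, against 1258, 1256 and 1242 in wild type muscle, which did not overlap, at 0.54 (SE 0.151, adjusted p = 0.0963).

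Of 22 regulators of ribosome production, such as genes of the mTOR pathway, 20 were tested, and 0 rose and 0 fell in limma, with 1 higher and 1 lower at an unadjusted p under 0.05 and a median of 0.05. The higher one was Eif4ebp1, the inhibitor of cap-dependent initiation that mTOR switches off. It read 890.2, 761.5 and 1386 in deficient muscle, against 462.7, 457.9 and 708 in wild type muscle. No value of the groups overlapped, at 0.86 (SE 0.259, adjusted p = 0.112). The lower one was Deptor, an inhibitor of mTOR, at 336.9, 414.3 and 449.9 against 544.1, 533.5 and 648.1. These were apart as well, at -0.51 (SE 0.184, adjusted p = 0.175).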

How the data were processed

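RNA of hind limb muscle of 6 mice was measured on 1 array each. The deposited table holds 1 linear signal intensity for each of 45101 probe sets and each array. Per the labels' protocols, biotinylated cRNA was hybridised to Affymetrix arrays. No source used here names the algorithm. The 2% trimmed mean was equal on every array, which shows that they had been brought to 1 scale.

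The analysis used log2(signal + 16). The medians of the arrays on this scale spanned 0.226, and since centring was planned only beyond 0.5, none was done. A probe set was kept where its mean reached the 40th percentile, which is a signal of 13.9. The brightest probe set with 1 symbol in the platform annotation stands for its gene. The group difference was fitted with limma 3.58.1 under R 4.3.3 (lmFit, then eBayes with an intensity trend, two-sided), with Benjamini-Hochberg adjustment over 13113 genes. Every adjusted p in the text is from this fit or, where named, from an alternative. Each p-value tests the group difference against the spread between mice within the groups, moderated by the trend over all genes.

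Genes named are Rpl3l, members that passed, the 6 highest and 6 lowest, the 4 brightest, paralogs, the 3 with the most discordant probe sets, those below the filter and Lama2. Other names were chosen after values were seen. The members and lists were chosen with earlier results of these data known. A planned comparison of Rpl3l with Rpl3 could not be made, since every Rpl3 probe set carries further symbols. Of 226 list and marker genes, 202 had a probe set with 1 symbol. The fit was tested on simulated data. Alternatives varied the scaling, filter, pseudocount, choice of probe set, variance prior, blocks and libraries. Values of single genes without wild type replicates 1 and 2 were added after the data were seen. The labels state no pairing by replicate number, and the main fit used none. Same-numbered libraries correlated at 0.148, 0.0660 and 0.301 in their deviations from the group means. Libraries with different numbers correlated between -0.293 and 0.204, so a pairing is neither shown nor excluded. Figures were drawn with matplotlib 3.10.9.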

Additional observations from a re-analysis of the deposited data

How the results depend on the processing

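Rpl3l was called lower under all 18 alternatives tried, with an adjusted p between 0.00139 and 0.0493. The count of changed genes over the whole array, 352, was 216 with no filter, 167 with no intensity trend, 857 with the replicate number as a block, 1140 with the block for Y-linked transcripts, and between 64 and 676 with 1 library left out. The replicate block changed no call among the members. It left 1 ribosomal protein gene called lower and 0 higher, and not every library correlated best with its own number. With the block for Y-linked transcripts 2 members fell, Rpl3l and Rps27l. Under quantile normalization 1 member rose, Rpsa, and with 1 library left out 0 to 1 rose, the 1 being Rps19. The median of the members was 0.07 with median centring and 0.18 with quantile normalization, where positive and negative members split 32 to 13 and 38 to 7. Small values changed sign. Rpl27 stood at 0.10 with quantile normalization, at 0.30 as the mean of its probe sets, and between -0.14 and 0.0325 with 1 library left out. Rps29 stood at 0.10 with quantile normalization and between -0.10 and 0.0360 with 1 left out. With 1 left out, Rps14 ran from -0.00614 to 0.12, Rpl39l from -0.92 to 0.0750 and Rps4l from -0.95 to 0.44. The cause was not tested. The comparison of Rpl3l with Rpl3 was not run. Low signal limits the 10 dim members.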

Other observations

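Genes with the Mrpl or Mrps symbols of mitochondrial ribosomal proteins were read in the same fit for comparison. The mitochondrial ribosome translates the messages of mitochondrial DNA, and its proteins are made in the cytosol. The genes were chosen by symbol alone, which does not place each product in that ribosome, and this holds for Mrps36 below. Of 76 such genes tested, 0 rose and 4 fell in limma, with 1 higher and 33 lower at an unadjusted p under 0.05. Over all genes tested, 1.24% were called higher and 1.44% lower, and 9.39% were higher and 9.47% lower at the unadjusted threshold. Their log2 fold changes were positive in 3 and negative in 73, with a median of -0.43, where the 45 cytosolic members had 0.11 and all genes 0.02. The difference between the sets of genes was not tested. The 4 that fell were Mrps36, Mrpl42, Mrpl14 and Mrps21. Mrps36 averaged 442.9 ± 52.3 in deficient and 1049 ± 119 in wild type muscle (SD, n = 3 each) and fell by 1.22 on the log2 scale (limma adjusted p = 0.0106).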
